A study of Mus musculus with 7 samples.

Results

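The BTG and TOB antiproliferative genes were followed as 5 genes, Btg1, Btg2, Btg3, Tob1 and Tob2, taken by symbol from the 55367 gene symbols measured in 7 messenger RNA libraries of G1E-ER4 cells. These mouse erythroid progenitor cells are an established line without functional GATA1 of their own, and they hold an introduced fusion of GATA1 with the hormone-binding part of the estrogen receptor. Estradiol switches this fusion protein on and thereby starts red cell maturation, so the line models maturation driven by the introduced protein. The groups were 3 libraries at 24 h with 100 nM β-estradiol and 50 µM of the metal chelator DTPA, which restricts zinc (called DTPA), 3 libraries at 24 h with 100 nM β-estradiol alone (called control), and 1 library of undifferentiated cells with neither agent (called 0 h). All cells grew with serum, erythropoietin and Kit ligand. The 3 replicates per group at 24 h are called biological in the labels, which do not say how the cultures were kept apart, so p-values measure the spread between these libraries.

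BTG and TOB proteins share an N-terminal domain that binds the deadenylases CNOT7 and CNOT8 of the CCR4-NOT complex, and through them they promote shortening of poly(A) tails. TOB proteins also carry C-terminal motifs that bind cytoplasmic poly(A)-binding protein. When overexpressed in cultured cells, members of the family slow entry into S phase, and Btg2 is best known as an immediate early gene and as a target of p53. In mouse erythroid progenitors, Btg1 is known as a target of the transcription factor Foxo3.

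In these cells Btg2 was the member that stood farthest from its level in undifferentiated cells. It averaged 1224 ± 35.4 TPM under DTPA and 881 ± 18.1 TPM in the controls (SD, n = 3 each), against 18.1 TPM at 0 h. Btg1 followed the same order of groups at a much lower level, Tob1 was higher under DTPA than in the controls, and Btg3 and Tob2 were lower under DTPA than in the controls. TPM is a level per length of the gene and relative to the library's total, so levels can be compared between genes.

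The members lie on different chromosomes of mm10 (GENCODE M21), and all are protein-coding genes with 1 value per library for the whole gene. Btg2 occupies chr1:134075170-134079120 (minus strand), Btg1 chr10:96617006-96622809 (plus strand) and Btg3 chr16:78332637-78377192 (minus strand). Tob1 occupies chr11:94211454-94215495 (plus strand) and Tob2 chr15:81848272-81858796 (minus strand). Exons of Btg3 share 695 bp with Cxadr on the other strand, which was listed at 0 in all 7 libraries, and exons of Tob2 share 289 bp with the antisense gene Gm49476, which was listed at 0 to 1.93 TPM. The relatives Btg4, Btg1b and Btg1c were listed at 0 in all 7 libraries.

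The bases just upstream of the RefSeq starts (GRCm38.p6) are shown for Btg2, Btg1 and Tob1, the 3 members that were higher under DTPA. These windows were picked by that direction, and whether any motif acts on expression was not tested. Each line gives 250 bases, 5′ to 3′ on the strand of the gene, and capitals mark matches to the 13 motifs searched on both strands. The windows are chr1:134079156-134079405 on the minus strand for Btg2, chr10:96616751-96617000 on the plus strand for Btg1 and chr11:94211204-94211453 on the plus strand for Tob1.
Btg2: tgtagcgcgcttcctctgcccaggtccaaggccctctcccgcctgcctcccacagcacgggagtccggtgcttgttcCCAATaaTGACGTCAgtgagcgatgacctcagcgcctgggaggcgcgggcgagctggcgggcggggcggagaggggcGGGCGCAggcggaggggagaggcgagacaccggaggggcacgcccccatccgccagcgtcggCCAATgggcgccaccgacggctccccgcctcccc
Btg1: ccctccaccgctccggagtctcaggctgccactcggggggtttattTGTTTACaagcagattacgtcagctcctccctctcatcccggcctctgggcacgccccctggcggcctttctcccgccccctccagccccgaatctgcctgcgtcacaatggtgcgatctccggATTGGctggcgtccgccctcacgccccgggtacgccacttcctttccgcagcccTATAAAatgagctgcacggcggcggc
Tob1: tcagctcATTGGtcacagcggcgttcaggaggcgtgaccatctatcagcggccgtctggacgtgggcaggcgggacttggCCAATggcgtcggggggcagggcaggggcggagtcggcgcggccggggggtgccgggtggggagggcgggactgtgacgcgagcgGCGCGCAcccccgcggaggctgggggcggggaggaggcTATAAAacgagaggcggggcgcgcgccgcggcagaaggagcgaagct

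The Btg2 window held the cAMP response element TGACGTCA, which begins 166 bases upstream of the start and stands in 1.55% of all 32851 promoter windows of this length. It also held CCAAT boxes (CCAAT, in 33.8% of windows) beginning 173 and 34 bases upstream, and the core of a metal response element (TGCGCNC, in 12.5%) beginning 96 bases upstream. The Btg1 window held the FOXO motif TGTTTAC, beginning 204 bases upstream and present in 3.17% of windows, a CCAAT box and a TATA box (TATAAA, in 12.4%) beginning 26 bases upstream. The Tob1 window held CCAAT boxes, a TATA box beginning 47 bases upstream and the TGCGCNC core. None of these 3 windows held the GATA motifs AGATAA (in 9.99%) or TGATAA (7.94%), the E-box CACGTG (6.02%), the E2F motifs TTTGGCGC (0.417%) or TTTCCCGC (0.895%), the other metal response core TGCACNC (10.4%), the p53 half-site (7.13%) or the CArG box of serum response factor (1.47%). No match overlapped another. The GATA forms that end in G, AGATAG and TGATAG, were not searched for. The printed Tob1 window holds ctatca, which is TGATAG on the other strand, and the share of windows with this form was not counted. G and C made up 73.2% of the Btg2 window, 65.2% of the Btg1 window and 73.6% of the Tob1 window. The median over all windows was 52.4%, and the motif shares were not adjusted for this. The Btg3 windows, which are not shown, held CCAAT boxes in both cases and the TGCGCNC core in 1. The Tob2 window lies inside an annotated exon of the gene over all 250 bases and is not shown.

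Estimated depths, read from the steps of low values, were 19.86 to 21.27 M reads in the DTPA libraries, 17.72 to 18.65 M in the controls and 17.62 M at 0 h. Mt2, a metallothionein gene that zinc induces, was at 11.96 to 13.73 TPM under DTPA, against 2592 to 2897 TPM in the controls. All 12 erythroid defining markers reached 1 TPM in every library. Megakaryocyte markers summed to 56.5 to 66.5 TPM under DTPA, 13.3 to 16.5 TPM in the controls and 92.6 TPM at 0 h, and 5 of the 12, among them Ppbp and Vwf, were at 0 throughout. Myeloid and mast cell markers summed to 3.62 to 5.8, 3.41 to 3.86 and 15.6 TPM in the same order, with 12, 10 and 10 of 15 at 0, and lymphoid markers to 2.56 to 2.82, 0.32 to 1.06 and 0.21 TPM, with 11, 10 and 11 of 12 at 0. The part of these levels in the BTG and TOB values was not tested. In such bulk samples, a lower value from fewer cells of a type and from less RNA per cell cannot be told apart.

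**Figure D1:**
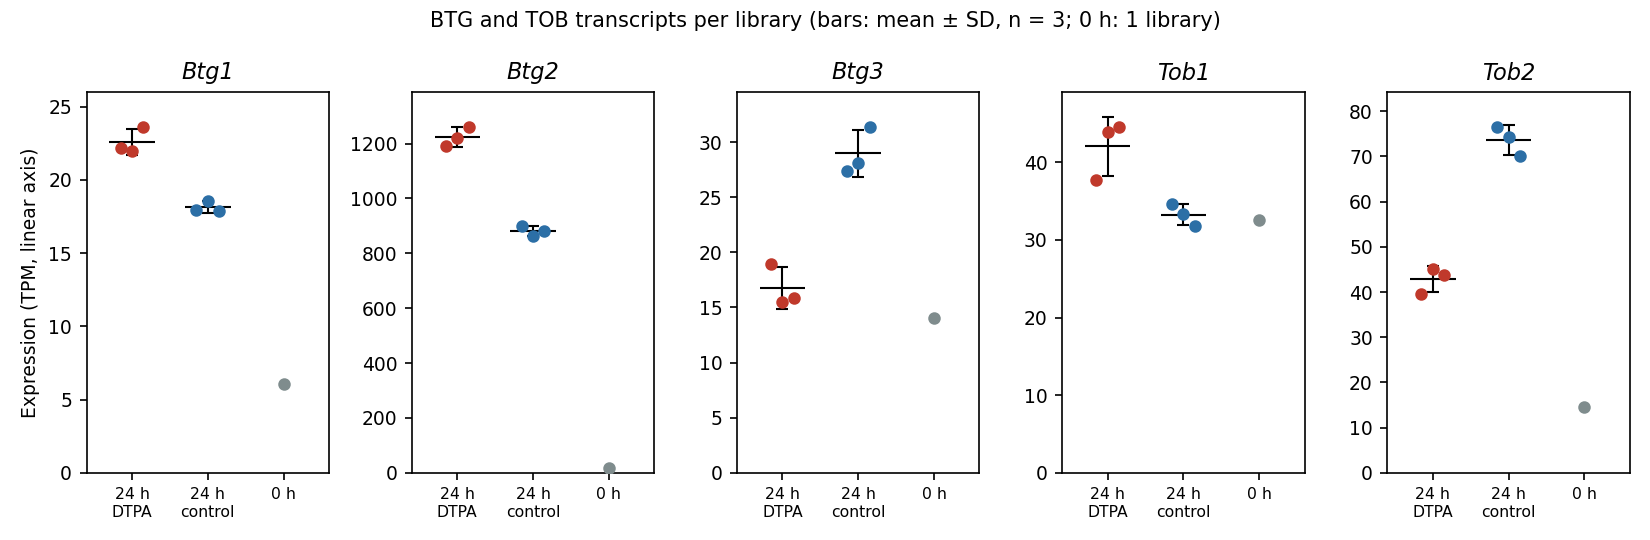
TPM of each member in every library, with the DTPA libraries left, the controls in the middle and the 0 h library right. Points are libraries, bars the mean ± SD of 3 libraries, and each panel has its own linear axis from 0. Btg2 reached 1192 to 1262 TPM under DTPA, and the DTPA and control libraries do not overlap in any panel.

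Btg2 encodes the family member best known as a p53 target, a short protein made of little more than the shared domain. The DTPA libraries held 1192, 1219 and 1262 TPM and the control libraries 899, 863 and 880 TPM, against 18.07 TPM in the 0 h library. All 3 DTPA libraries lay above all 3 controls, and every library at 24 h lay far above the 0 h library. The values rest on an estimated 22762 to 24865 reads under DTPA, 13808 to 14995 in the controls and 293 at 0 h. Btg2 rose under DTPA by a log2 fold change of 0.47 ± 0.0384 (SE; 95% interval 0.38 to 0.56; limma adjusted p = 3.29e-05), which is 1.39-fold by mean TPM. Against 0 h it rose by 6.00 on the log2 scale under DTPA (limma adjusted p = 6.93e-08, 67.7-fold) and by 5.53 in the controls (limma adjusted p = 1.13e-07, 48.7-fold). By size of rise it stood 16th among 12016 genes tested for DTPA against 0 h and 15th among 11906 genes tested for control against 0 h. Among all symbols, Btg2 ranked 98 to 102 by TPM under DTPA, 125 to 136 in the controls and 6355 at 0 h.

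Btg1 encodes the closest relative of Btg2 and was first known from a chromosome translocation in human B-cell leukemia. Its values were 22.16, 21.96 and 23.64 TPM in the DTPA libraries and 17.93, 18.59 and 17.90 TPM in the controls, against 6.03 TPM at 0 h. The groups did not overlap, and they stood in the same order as for Btg2. Btg1 rose under DTPA by 0.30 ± 0.0543 on the log2 scale (SE; limma adjusted p = 0.00214), with 789 to 896 estimated reads per DTPA library and 552 to 575 per control library. Against the 188 estimated reads at 0 h it rose by 1.75 under DTPA (limma adjusted p = 4.04e-06) and by 1.44 in the controls (limma adjusted p = 1.02e-05). Within each library Btg2 was the more abundant of these relatives, by 53.4 to 55.5 times under DTPA and 46.4 to 50.2 times in the controls, against 3.00 times at 0 h.

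Btg3, a longer member of the BTG branch, had 18.91, 15.51 and 15.88 TPM under DTPA and 27.42, 28.15 and 31.41 TPM in the controls, against 14.00 TPM at 0 h. The DTPA libraries lay below all controls and close to the 0 h library. Btg3 fell under DTPA by 0.76 on the log2 scale (SE 0.0888, limma adjusted p = 2.29e-04), a ratio of mean TPM of 0.578. For control against 0 h its log2 fold change was 0.997 (95% interval 0.67 to 1.32, limma adjusted p = 7.61e-04), just under the minimum of 1 that was asked of comparisons with the single 0 h library. For DTPA against 0 h it was 0.24, with an interval of -0.09 to 0.56 (limma adjusted p = 0.146). Relative to Btg1 in the same library, Btg3 stood at 0.672 to 0.853 under DTPA and 1.51 to 1.76 in the controls, against 2.32 at 0 h.

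Tob1, whose product also binds SMAD proteins and was found as a partner of the receptor ErbB2, had 37.69, 43.90 and 44.59 TPM in the DTPA libraries and 34.59, 33.35 and 31.85 TPM in the controls, against 32.54 TPM at 0 h. The control libraries spanned the 0 h value, and the DTPA libraries lay above both. Tob1 rose under DTPA by 0.33 ± 0.0729 on the log2 scale (SE; limma adjusted p = 0.00612). For control against 0 h the log2 fold change was 0.03, with an interval of -0.23 to 0.29 (limma adjusted p = 0.809). For DTPA against 0 h it was 0.36 (interval 0.10 to 0.62, limma adjusted p = 0.0218), below the minimum of 1. The estimated reads were 601 to 733 per DTPA library, 426 to 481 per control library and 440 at 0 h.

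Tob2, the closest relative of Tob1, went the other way from it under DTPA. Tob2 had 39.53, 45.06 and 43.76 TPM in the DTPA libraries and 76.60, 74.20 and 70.15 TPM in the controls, against 14.60 TPM at 0 h. The 3 groups did not overlap, and the DTPA libraries stood between the controls and the 0 h library. Tob2 fell under DTPA by 0.77 on the log2 scale (SE 0.0616, limma adjusted p = 3.08e-05), a ratio of mean TPM of 0.581. It rose against 0 h by 1.49 under DTPA (limma adjusted p = 1.80e-05) and by 2.26 in the controls (limma adjusted p = 4.50e-06). The ratio of Tob1 to Tob2 within a library was 0.954 to 1.02 under DTPA and 0.450 to 0.454 in the controls, against 2.23 at 0 h, a ratio that no scaling factor of a library can move.

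Set against all genes, the 5 calls under DTPA were 3 higher and 2 lower, where 58.1% of the 11147 tested genes were called, 21.7% higher and 36.4% lower. The libraries of both groups did not overlap in any of the 5 members, and the same held for 65.0% of tested genes. A call by itself was therefore common in this comparison. By log2 fold change, 86.8% of tested genes lay below Btg2, 80.9% below Tob1, 79.5% below Btg1, 9.27% below Btg3 and 8.95% below Tob2. The exact two-sided permutation test gave p = 0.1 for each member (higher in 3 of 3 DTPA libraries for Btg1, Btg2 and Tob1 and lower in 3 of 3 for Btg3 and Tob2), the smallest p that 3 against 3 libraries allow. The balance of calls depends on the scaling: of the called genes, 37.3% were higher in the values as deposited, 47.9% after median-of-ratios scaling and 50.6% after quantile normalization, which moved the median of all genes from -0.09 to 0.01. Relative to that median of -0.09, the changes were 0.56 for Btg2, 0.42 for Tob1, 0.39 for Btg1, -0.67 for Btg3 and -0.68 for Tob2. Each member kept its direction and its call under every scaling tried.

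Against 0 h, Btg1, Btg2 and Tob2 passed in both comparisons and none was lower. For DTPA against 0 h, 43.3% of 12016 genes were called, 15.7% higher and 27.6% lower. For control against 0 h, 39.4% of 11906 genes were called, 15.1% higher and 24.3% lower. Both comparisons share the single 0 h library, whose spread was assumed to be that of the groups at 24 h, and DTPA against control shares its libraries with them. Over all tested genes the median was -0.30 on the log2 scale for DTPA against 0 h and -0.22 for control against 0 h, and quantile normalization moved these medians to -0.02 and -0.01. With it, 49.8% of called genes were higher for DTPA against 0 h and 50.1% for control against 0 h, where the deposited scale gave 36.3% and 38.3%. Relative to the medians on the deposited scale, Btg2 stood at 6.31 and 5.75, Btg1 at 2.05 and 1.66, and Tob2 at 1.79 and 2.48 for DTPA and control against 0 h.

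**Figure D2:**
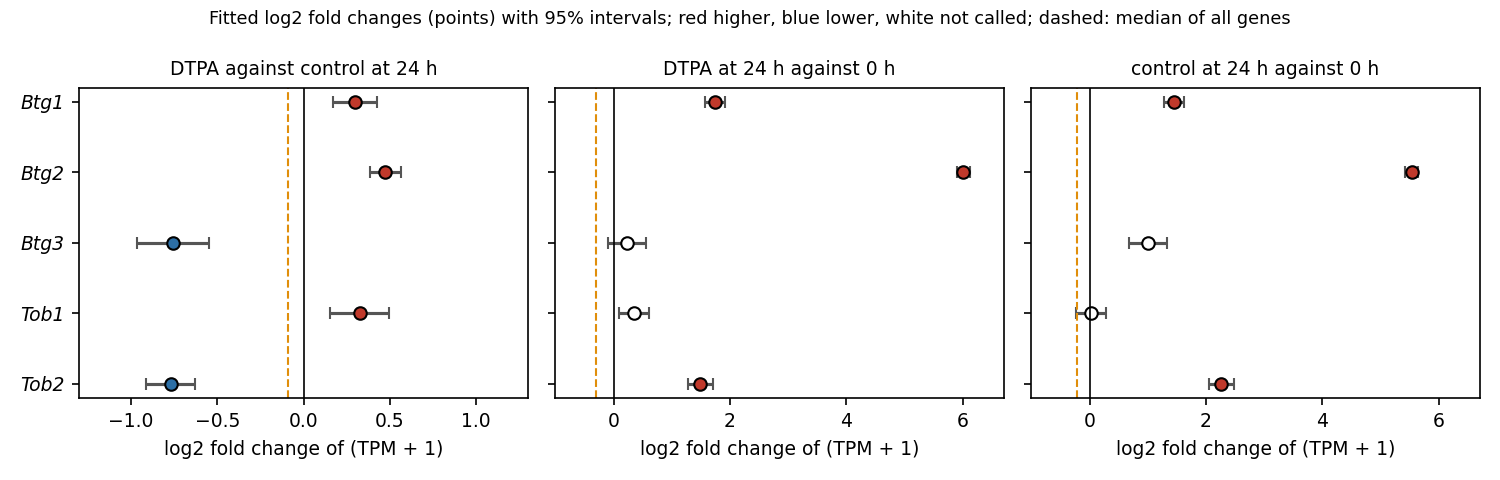
Log2 fold change of (TPM + 1) for each member in DTPA against control, DTPA against 0 h and control against 0 h, with 95% intervals of the limma fit; the first panel has a narrower axis. Red points were called higher, blue lower and white not called, and the dashed line is the median of all tested genes; Btg3 and Tob2 are the members left of 0 under DTPA against control.

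The makeup of the family's transcripts differed between the groups. The TPM of the 5 members summed to 1348 ± 40.1 under DTPA and 1035 ± 19.3 in the controls (SD, n = 3 each), against 85.2 at 0 h. Btg2 made up 90.6% to 91.0% of the sum under DTPA and 84.8% to 85.3% in the controls, against 21.2% at 0 h. Without Btg2 the order of the groups at 24 h was turned round, with sums of 124 ± 5.16 TPM under DTPA and 154 ± 2.61 TPM in the controls, against 67.2 TPM at 0 h. Under DTPA the order of levels was Btg2, then Tob2 and Tob1, whose ranges overlapped, then Btg1, then Btg3. In the controls the order was Btg2, Tob2, Tob1, Btg3 and Btg1, where the lowest Tob1 value of 31.85 TPM lay just above the highest Btg3 value of 31.41 TPM, a gap smaller than the SD of either gene. At 0 h the most abundant member was Tob1 with 38.2% of the sum, followed by Btg2, Tob2, Btg3 and Btg1, and no spread is known there. Btg1 and Btg3 changed places between DTPA and control without any overlap of their ranges in either group.

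**Figure D3:**
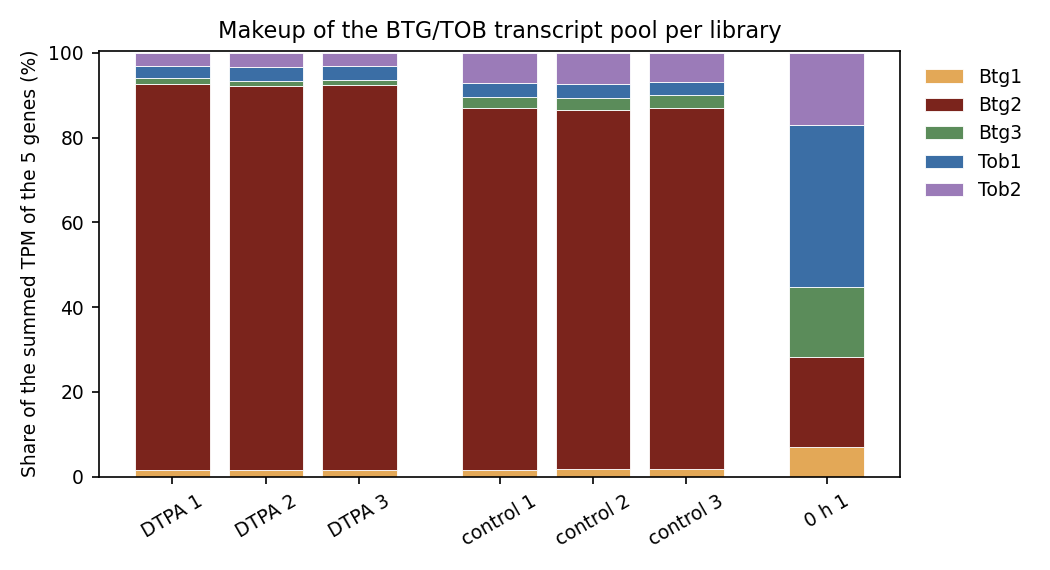
Share of each member in the summed TPM of the 5 genes (percent, stacked bars from 0), one bar per library, with the DTPA libraries left, the controls in the middle and the 0 h library right. Btg2 takes 90.6% to 91.0% of the bar under DTPA, 84.8% to 85.3% in the controls and 21.2% at 0 h.

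Genes that work with BTG and TOB proteins were described by lists of related genes. For every list below, the share over all tested genes for DTPA against control was 21.7% called higher and 36.4% called lower. All 12 listed CCR4-NOT genes passed the filter on low values, and 1 rose, 8 fell and 3 were not called under DTPA, with a median log2 fold change of -0.19 against -0.09 over all genes. Cnot9, a subunit that binds many mRNA regulators, fell to 129.5 ± 1.75 TPM under DTPA, against 263 ± 6.55 TPM in the controls (limma adjusted p = 5.73e-07). Cnot3, Cnot1, the large scaffold, and Cnot4, a ubiquitin ligase, fell by 0.55, 0.38 and 0.28 on the log2 scale. The deadenylases that BTG and TOB proteins bind, named here for that role, were Cnot7 and Cnot8. Cnot7 fell by 0.26 (limma adjusted p = 0.0147), and Cnot8 had 67.8 ± 3.42 TPM under DTPA and 70.4 ± 1.37 TPM in the controls (limma adjusted p = 0.35).

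Of 13 tested genes among 15 for other deadenylases, poly(A)-binding proteins and related proteins, 4 rose and 3 fell under DTPA. Their median was -0.10. Noct, which encodes nocturnin, fell to 10.4 ± 0.362 TPM under DTPA, against 31.3 ± 0.871 TPM in the controls. The poly(A)-binding protein genes moved apart: Pabpc4 fell by 1.20 on the log2 scale (limma adjusted p = 4.37e-07), while Pabpc1 rose by 0.54 (limma adjusted p = 9.34e-06). Paip2, which encodes an inhibitor of PABPC1, rose by 0.33. Of 10 tested genes among 16 partner proteins and kinases, 4 rose and 3 fell, with a median of 0.03. Prmt1, the arginine methyltransferase that binds BTG1 and BTG2, had 22.7 ± 1.14 TPM under DTPA and 32.9 ± 2.34 TPM in the controls, against 316 TPM at 0 h, and it fell under DTPA relative to control by 0.51 on the log2 scale (limma adjusted p = 4.12e-04). For control against 0 h the log2 fold change of Prmt1 was -3.23 (limma adjusted p = 1.64e-06). Cpeb3, an mRNA-binding protein gene whose product recruits TOB, rose to 3.57 ± 0.170 TPM under DTPA, against 1.51 ± 0.0764 TPM in the controls, and Smad5 and Rb1 rose by 0.50 and 0.32 on the log2 scale.

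Among the pathways known to induce members of the family, 23 of 29 p53 pathway genes were tested. Of these, 13 rose and 4 fell under DTPA, with a median of 0.27. Over all tested genes, 21.7% rose and 36.4% fell, with a median of -0.09. Bbc3, the apoptosis gene PUMA, rose to 173 ± 2.05 TPM under DTPA, against 91.5 ± 14.9 TPM in the controls, and Eda2r and Zmat3 rose by 0.84 and 0.82 on the log2 scale, while Ddb2 fell by 0.82. Trp53 and the CDK inhibitor gene Cdkn1a, named here for their roles, rose by 0.59 and 0.36 under DTPA relative to control. Trp53 had 208 ± 15.2 TPM under DTPA and 137 ± 2.09 TPM in the controls, both below the 301 TPM at 0 h. Cdkn1a had 258 ± 14.1 TPM under DTPA and 201 ± 9.84 TPM in the controls, both above the 84.15 TPM at 0 h. Of 26 FOXO factors and targets, 16 were tested, of which 11 rose and 2 fell, with a median of 0.28. Cited2, Txnip, Ulk1 and Pink1 rose by 1.25, 1.18, 0.84 and 0.51 on the log2 scale. Foxo3, named here for its role, had 273 ± 13.6 TPM under DTPA and 211 ± 7.29 TPM in the controls, against 54.2 TPM at 0 h, and rose under DTPA by 0.37 (limma adjusted p = 4.36e-04). For control against 0 h, 8 of the 16 FOXO genes and 6 of 24 tested p53 genes rose and 2 and 5 fell. Over all genes tested in that comparison, 15.1% rose and 24.3% fell.

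Other immediate early genes moved in both directions. Of 30 listed, 16 were tested, of which 7 rose and 6 fell under DTPA, with a median of 0.16. Egr1 rose to 32.6 ± 1.45 TPM under DTPA, against 7.43 ± 0.319 TPM in the controls, with 36.5 TPM at 0 h. Jun and Myc rose under DTPA relative to control by 1.35 and 0.99 on the log2 scale. Myc had 30.6 ± 1.43 TPM under DTPA and 14.9 ± 0.164 TPM in the controls, both far below the 474 TPM at 0 h. Gadd45b fell to 0.57 ± 0.231 TPM under DTPA, against 6.64 ± 0.926 TPM in the controls.

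The G1 list of 15 genes mixed genes that promote entry into S phase with genes that oppose it, and 11 were tested, of which 1 rose and 8 fell under DTPA, with a median of -0.48. Of the 7 tested cyclin and CDK genes, 5 fell and none rose, with a median of -0.59. Of the 4 tested CDK inhibitor genes, Cdkn1b, Cdkn2c and Cdkn2d fell and Cdkn1a rose. Ccne1, encoding cyclin E1, fell to 116 ± 2.45 TPM under DTPA, against 316 ± 3.91 TPM in the controls (limma adjusted p = 1.25e-07). The inhibitor gene Cdkn2c and the kinase genes Cdk2 and Cdk4 fell by 0.97, 0.87 and 0.82 on the log2 scale. Ccnd1, named here as the cyclin gene best known as a target of TOB and BTG2, was listed at 0 in all 7 libraries, and its exons share 1100 bp with LTO1 on the other strand, at 5.68 to 14.1 TPM. Of the other named list genes, Cnot3, Cnot9, Cdk4, Ddb2 and Rb1 share at least 100 bp of exon with a gene on the other strand that reached 5 TPM, and whether the counting used strand is not given in the sources used here. These lists share a few genes with each other, and the change of a list was not tested as a whole.

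**Figure D4:**
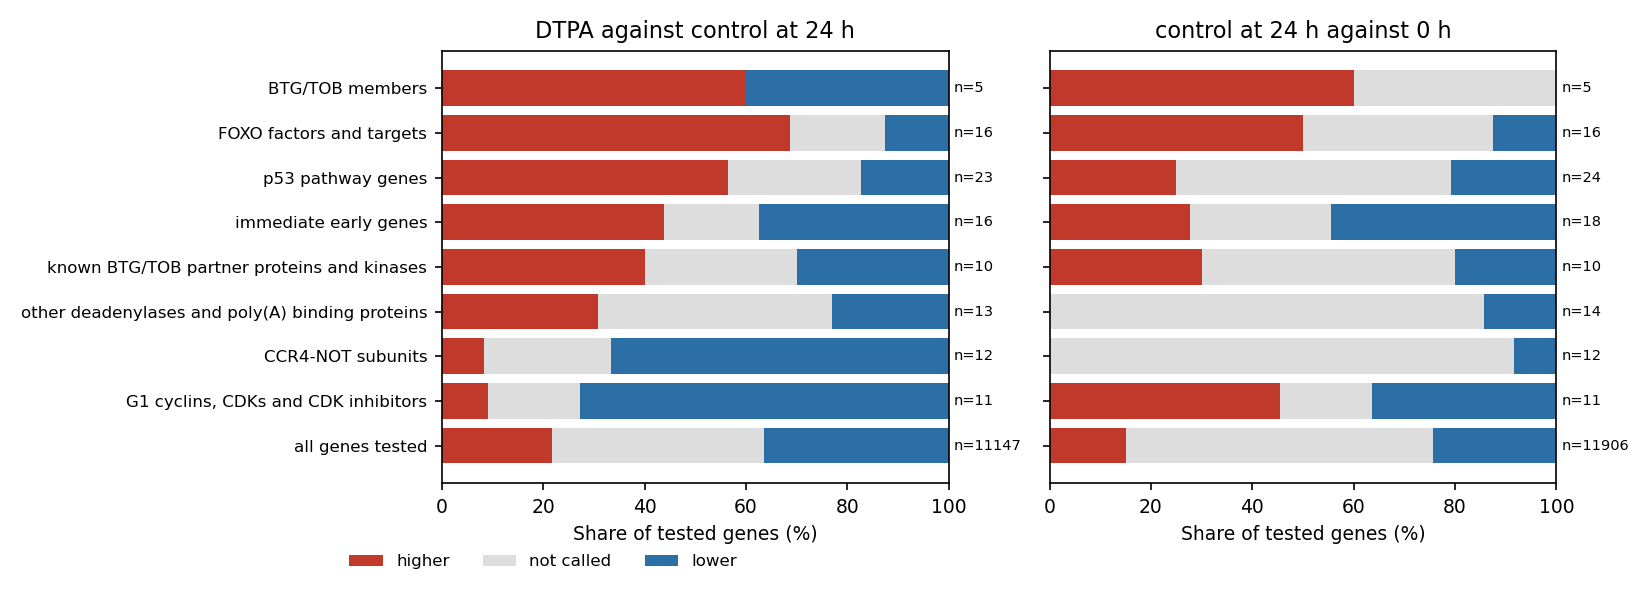
Share of tested genes (percent, bars from 0 to 100) called higher (red), not called (grey) and lower (blue) in each list, with all tested genes at the bottom, for DTPA against control (left) and control against 0 h (right). Of the 16 tested FOXO genes 11 were higher under DTPA, and of the 12 CCR4-NOT genes 8 were lower.

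The genes nearest to each member in pattern were taken from 8257 named genes that averaged 5 TPM or more over the groups, by the root mean square difference of centred log2(TPM + 1) over the 7 libraries with groups weighted equally. Nearest to Btg2, at 0.113, was Alas2, the erythroid enzyme of the committed step of heme synthesis, with 2538 ± 41.4 TPM under DTPA and 1937 ± 61.6 TPM in the controls, against 34.1 TPM at 0 h. Evi5l and Tmem150a followed at 0.119 and 0.136. Nearest to Btg1 were Arel1, Lpcat3 and Sqstm1, the autophagy receptor p62, at 0.043, 0.046 and 0.047. Nearest to Btg3 were Zfp715, Aida and Katnbl1 at 0.056, 0.062 and 0.067, and nearest to Tob2 were Mus81, Tubd1 and Psmf1 at 0.048, 0.061 and 0.066. Tob1, which varied least, was nearest to Eef2, Plcb3 and Zfp408 at 0.042, 0.043 and 0.049. Of these, Alas2, Lpcat3, Sqstm1 and Aida share at least 100 bp of exon with a gene on the other strand that reached 5 TPM, and Tmem150a, Plcb3 and Arel1 share 49, 22 and 4 bp with such genes. Among the members themselves, the closest pair was Btg1 and Tob2 at 0.46, and the farthest Btg2 and Tob1 at 2.63. Even so, Btg1 and Tob2 moved in opposite directions for DTPA against control, by 0.30 and -0.77 on the log2 scale.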

How the data were processed

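The deposited values are TPM per gene symbol and library, made by the authors from messenger RNA libraries (Illumina TruSeq stranded kit, per the labels' protocols). The submitters' processing notes name Trimmomatic 0.33, FastQC, HISAT2 2.1.0, featureCounts and edgeR, with build mm10; annotation, gene lengths, strand setting and the handling of multiply mapped reads are not given in the sources used here. Values of 114 symbols on several rows were summed. TPM keeps no depth, so the worth of 1 read was estimated from low values and GENCODE M21 exon lengths; 98.8% to 99.3% of low values then lay within 0.1 of a whole read.

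Log2(TPM + 1) values were tested two-sided with limma 3.58.1 (R 4.3.3), with a variance trend and Benjamini-Hochberg adjustment over all tested genes at 0.05. Fold changes on this scale understate the change of low genes. DTPA against control used 6 libraries and every gene that reached 1 TPM in 3 or more of them. Comparisons with 0 h used all 7 libraries, genes averaging 1 TPM or more in either group compared, and a minimum log2 fold change of 1. Libraries of a group differed by more than counting noise (mean chi-square per gene 2.99 to 9.18), so none was taken for a library deposited in duplicate; this does not show that the cultures were separate. Named genes are the members, up to 4 called genes per list with the largest change under DTPA, the 3 nearest genes per member, markers of cell types and of zinc (Mt2, Ppbp, Vwf), and genes said to be named for their role or for a class they belong to, which were added after values were seen. Members and lists were chosen with earlier results of these data known. Promoter sequences are from RefSeq (GRCm38.p6), matched for 5 of 5 members.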

Additional observations from a re-analysis of the deposited data

How the results depend on the processing

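The log2 fold changes of the 5 members were recomputed under 195 combinations of member, comparison and alternative (pseudocounts of 0.5 and 5, no filter or a filter of 5 TPM, 3 other scalings, no variance trend, adjusted p alone for comparisons with 0 h, the replicate block and leaving out each library at 24 h). None changed direction or lost a call, and 8 gained one: Btg3 for control against 0 h in 7 (log2 fold change 0.84 to 1.29 over all its alternatives), and Tob1 for DTPA against 0 h with adjusted p alone. The filters, the variance trend, adjusted p alone and the replicate block do not alter the fold change itself. Direction could therefore not change under them, and adjusted p alone could only add calls. Under DTPA against control the ranges were 0.25 to 0.43 for Btg1, 0.36 to 0.57 for Btg2, -0.84 to -0.62 for Btg3, 0.28 to 0.47 for Tob1 and -0.81 to -0.63 for Tob2. With adjusted p alone, which drops the minimum fold, 3675 genes were higher and 5188 lower for control against 0 h, and 3598 and 5594 for DTPA against 0 h; on the reported rule these were 1794 and 2894, and 1888 and 3318. Leaving out 1 library gave 1918 to 2312 higher and 3653 to 3909 lower genes under DTPA against control, with all 5 members called each time.

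Same-numbered DTPA and control libraries did not deviate together (correlations across genes of -0.01, 0.03 and -0.01), so the numbers were not taken to pair them. With the replicate block, 2274 genes were higher and 3888 lower, against 2415 and 4059 without it, and all 5 members were still called. The 0 h values rest on 188 to 575 estimated reads per member, in a single library with no replicate.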
